A study of Mus musculus with 4 samples.

Results

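The 10 genes described here carry dietary fat through the absorptive cell of the small intestine. They are the sterol importer gene Npc1l1, the fatty acid binding protein genes Fabp1 and Fabp2, the triglyceride synthesis genes Mogat2 and Dgat1, the lipid transfer gene Mttp, and the lipoprotein genes Apob, Apoa1, Apoa4 and Apoc3. They were taken by name as a list of fat uptake, resynthesis and lipoprotein genes. All 10 had a level, each from 1 probe set that names no other gene, among 19938 genes measured in all.

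Fat enters the enterocyte as fatty acids and monoacylglycerol, and cholesterol enters through NPC1L1 in the brush border. Inside the cell fatty acids travel on binding proteins to the endoplasmic reticulum (ER), where MOGAT2 and then DGAT1 rebuild triglyceride. The transfer protein MTTP loads this lipid onto apolipoprotein B, and the particle takes up smaller apolipoproteins before it leaves as a chylomicron. These genes are known as products of differentiated enterocytes, and several of them are also made by the liver.

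The study deleted Slc39a7, the gene of ZIP7, a zinc exporter of the ER and Golgi, and measured gene expression in crypt cells of adult mouse small intestine sorted on Lgr5 level. Every mouse carried villin-CreERT2, a Cre driver active in intestinal epithelium, together with the Lgr5-EGFP-ires-CreERT2 reporter allele, and received tamoxifen for 2 days. Control mice were Zip7flox/+, so that 1 of their Zip7 copies was floxed too, and the mice called Zip7 KO here were Zip7flox/flox. The groups are control cells labelled Lgr5-Hi, control cells labelled Lgr5-Med, Zip7 KO cells labelled Lgr5-Hi and Zip7 KO cells labelled Lgr5-Med, with 1 Affymetrix array each (4 in all, 2 of the titles writing Mid for Med). The labels give neither the number of mice behind an array nor whether both fractions came from the same mice. With 1 array a group there is no spread between samples. No difference below was therefore tested or has an error, and each is a description of these arrays.

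Several label checks bear on all comparisons. Lgr5 stood at 7.79 (control) and 7.93 (Zip7 KO) on the arrays labelled Lgr5-Hi but at 10.97 and 11.24 on those labelled Lgr5-Med, against the labels, and all 5 stem cell markers listed (Lgr5, Ascl2, Smoc2, Olfm4 and Axin2) were higher under the label Lgr5-Med in both genotypes. Samples keep their labelled names here, and since each group has no other array, no result can be given without these. Slc39a7 was at 8.92 and 9.02 in control and Zip7 KO cells labelled Lgr5-Hi and at 8.61 and 8.22 in those labelled Lgr5-Med; where its probes lie relative to the deleted part was not known, so this checks nothing. Xist, made by female cells, was at 11.64 and 11.84 on the control arrays and at 5.59 and 5.43 on the Zip7 KO arrays, so that sex and genotype cannot be told apart. The 5 epithelial markers (Epcam, Cdh1, Krt8, Krt18 and Krt19) and the 8 enterocyte markers (Vil1, Alpi, Krt20, Sis, Anpep, Slc5a1, Enpep and Treh) were above the expression floor on all 4 arrays. The floor is percentile 95 of 1207 odorant, pheromone and trace amine receptor genes on each array and lay between 6.10 and 6.25. The hepatocyte genes Alb and Fgb, the adipocyte genes Adipoq and Lep, the macrophage genes Csf1r, Adgre1 and C1qa and the endothelial genes Pecam1 and Cdh5 were below it on all 4. Other genes of these lists were above it on all 4, namely the liver gene Ttr at 8.48 to 8.74, the macrophage gene Cd68 at 8.56 to 9.02, the adipocyte gene Plin1 at up to 6.49 and the stromal genes Col1a1 at 7.01 to 7.19 and Col3a1 at 6.67 to 7.01. The stromal gene Acta2 was above it on 3. Lymphocyte genes were above it on all 4 too, with Cd3e at 6.87 to 7.80, Gzma at 7.17 to 8.72 and Gzmb at 6.61 to 9.16. So was the pancreas gene Cela1, at 6.50 to 6.68.

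All 10 genes were far above the floor on every array, by at least 3.14 log2 units, the smallest margin being that of Mogat2. Levels are RMA log2 values of a probe set, a scale on which 1 unit is 2-fold, and are compared between arrays for the same gene, never between genes. The 10 genes differed by less than 2-fold over the 4 arrays, from a range of 0.27 for Apob and Apoa4 to one of 0.95 for Mogat2. The Zip7 KO array labelled Lgr5-Med held the lowest value for 8 of the 10. The share of all genes that were lowest on that array was not counted. Among the 8, Apoa4 was all but level there, at 12.287, with its 12.289 in control cells labelled Lgr5-Hi. For the other 2 of the 10, Fabp2 and Apoc3, the lowest value was that of the control array labelled Lgr5-Hi, though for Fabp2 the Zip7 KO array of that label was lower under the 3 other scalings.

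**Figure D1:**
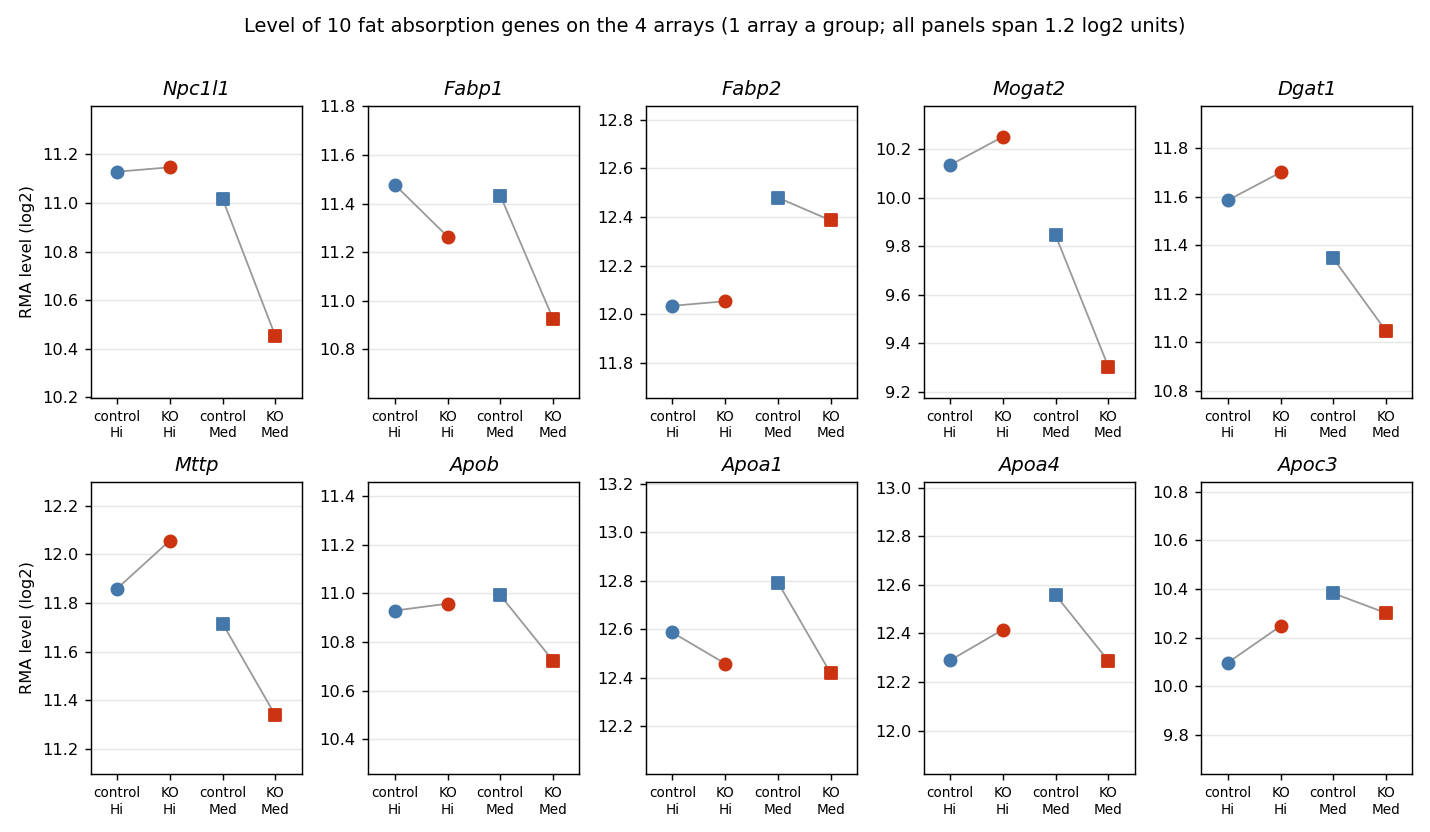
RMA level (log2) of each of the 10 genes on the 4 arrays, with control in blue, Zip7 KO in red, circles for arrays labelled Lgr5-Hi and squares for those labelled Lgr5-Med; grey lines join the genotypes of a label. Each panel has its own level axis of the same length, and the Zip7 KO array labelled Lgr5-Med is the lowest point in 8 of 10 panels, all but Fabp2 and Apoc3. In the panel of Apoa4 that array is all but level with control cells labelled Lgr5-Hi.

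Npc1l1, the brush border protein through which cholesterol is taken up and the target of ezetimibe, stood at 11.13 in control and 11.15 in Zip7 KO cells labelled Lgr5-Hi, and at 11.02 in control and 10.45 in Zip7 KO cells labelled Lgr5-Med. It was thus level on 3 arrays and lower on the fourth. Under the label Lgr5-Med the Zip7 KO value differed by -0.56, or 1.48-fold, the largest genotype difference among the 10 genes; under the label Lgr5-Hi it differed by 0.02.

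The fatty acid binding proteins carry long-chain fatty acids through the cytosol. Fabp1, the form shared with liver, was at 11.48 in control and 11.26 in Zip7 KO cells labelled Lgr5-Hi and at 11.43 and 10.93 in those labelled Lgr5-Med. Both Zip7 KO values lay below both control values, which in the deposited values held for Fabp1 and Apoa1 and for none of the other 8 genes. After quantile normalisation it held for Apob as well. The genotype differences of Fabp1 were -0.21 and -0.51. Fabp2, the intestinal form, was at 12.03 in control and 12.05 in Zip7 KO cells labelled Lgr5-Hi and at 12.48 and 12.39 in those labelled Lgr5-Med. Its values parted by fraction label and not by genotype, with both arrays labelled Lgr5-Med above both labelled Lgr5-Hi. Its genotype differences were 0.02 and -0.09.

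The enzymes that rebuild triglyceride shared an order of arrays. Mogat2, which joins a fatty acid to monoacylglycerol, was at 10.13 in control and 10.25 in Zip7 KO cells labelled Lgr5-Hi and at 9.84 and 9.30 in those labelled Lgr5-Med. Dgat1, which adds the last fatty acid, was at 11.59 and 11.70 under the label Lgr5-Hi and at 11.35 and 11.05 under Lgr5-Med. Both genes were highest in Zip7 KO cells labelled Lgr5-Hi and lowest in Zip7 KO cells labelled Lgr5-Med, with the controls between them. The genotype differences of Mogat2 were 0.12 and -0.54, and those of Dgat1 were 0.11 and -0.30.

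Mttp, the microsomal transfer protein that works with the disulfide isomerase P4HB in the ER, was at 11.86 in control and 12.06 in Zip7 KO cells labelled Lgr5-Hi and at 11.72 and 11.34 in those labelled Lgr5-Med. It had the order of arrays of Mogat2 and Dgat1, and of Npc1l1 as deposited; the 3 other scalings put Npc1l1 higher in control than in Zip7 KO cells labelled Lgr5-Hi. The difference of 0.20 under the label Lgr5-Hi was the highest of the 10 genes there, and that under Lgr5-Med was -0.38. Apob, whose protein is the backbone of the chylomicron, varied little, at 10.93 and 10.96 in cells labelled Lgr5-Hi and 10.99 and 10.72 under Lgr5-Med in control and Zip7 KO cells. Its genotype differences were 0.03 and -0.27.

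The smaller apolipoprotein genes Apoa1, Apoc3 and Apoa4 are consecutive protein-coding genes on mouse chromosome 9 in the RefSeq order of GRCm38.p6, followed by Apoa5. Apoa1, which also forms high-density lipoprotein, was at 12.59 in control and 12.46 in Zip7 KO cells labelled Lgr5-Hi and at 12.79 and 12.42 in those labelled Lgr5-Med. Apoa4, a gut apolipoprotein linked to chylomicron size, was at 12.29 and 12.42 under the label Lgr5-Hi and at 12.56 and 12.29 under Lgr5-Med. Apoc3, which slows the clearance of triglyceride-rich particles, was at 10.10 and 10.25 under the label Lgr5-Hi and at 10.38 and 10.30 under Lgr5-Med. All 3 were highest in control cells labelled Lgr5-Med, as were Fabp2 and, except with arrays centred on their medians, Apob. Their genotype differences were -0.13 and -0.37 for Apoa1, 0.13 and -0.27 for Apoa4, and 0.15 and -0.08 for Apoc3. Apoa5, a neighbour that is made mainly in liver, was near the floor at 6.63 to 6.72.

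The first comparison set Zip7 KO against control cells labelled Lgr5-Hi. The 10 genes hardly differed, with a median of 0.07 between -0.21 for Fabp1 and 0.20 for Mttp, beside a median of 0.02 over the 11988 genes above the floor on either array. Of the 10, 8 were higher and 2 lower, where 55 percent of all genes tested were higher and 45 percent lower. The 8 enterocyte markers had a median of 0.04 (-0.02 after quantile normalisation or removal of the loess trend), while all 4 Paneth cell markers and all 5 lymphocyte markers were lower, with medians of -0.83 and -0.94, and the part of these in the result was not tested. None of the 10 genes reached 1.5-fold (0.58 on the log2 scale), which 1.08 percent of all genes did upward and 0.926 percent downward. All 10 lay inside the range from percentile 5 to 95 of all genes, -0.33 to 0.36. The direction is not settled, since 5 of 10 were lower once the arrays were centred on their medians, quantile normalised or freed of the loess trend, with Npc1l1, Fabp2 and Apob turning sign under each.

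The second comparison, of the arrays labelled Lgr5-Med, found all 10 genes lower in Zip7 KO cells. The median was -0.34, beside -0.03 over 12243 genes, of which 55.8 percent were lower and 44.1 percent higher (39.5 percent lower with arrays centred on their medians). The values ran from -0.56 for Npc1l1, -0.54 for Mogat2 and -0.51 for Fabp1 to -0.09 for Fabp2 and -0.08 for Apoc3. These first 3 genes lay below percentile 5 of all genes, at -0.40, and none reached 1.5-fold, which 2.1 percent of all genes did downward and 0.425 percent upward. All 10 stayed lower under the 3 other scalings, with medians from -0.38 to -0.26, though with arrays centred on their medians Fabp2 and Apoc3 were scarcely lower. The 8 enterocyte markers were lower too, 8 of 8, with a median of -0.56 from -0.83 for the peptidase Enpep to -0.18 for the disaccharidase Sis, and their summed linear level was 18257 against 24277 in the control. The epithelial markers had a median of 0.07, from -0.03 for Krt8 to 0.07 for Krt18. All 4 Paneth cell markers, all 4 goblet cell markers measured and all 5 lymphocyte markers were lower as well, with medians of -1.41, -0.70 and -0.96, and so were all 5 enteroendocrine markers, with a median of -0.45. All 4 tuft cell markers were higher, with a median of 0.25. The part of these cell types in the result was not tested. In sorted cells measured in bulk, fewer enterocytes and less RNA of a gene per enterocyte cannot be told apart.

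**Figure D2:**
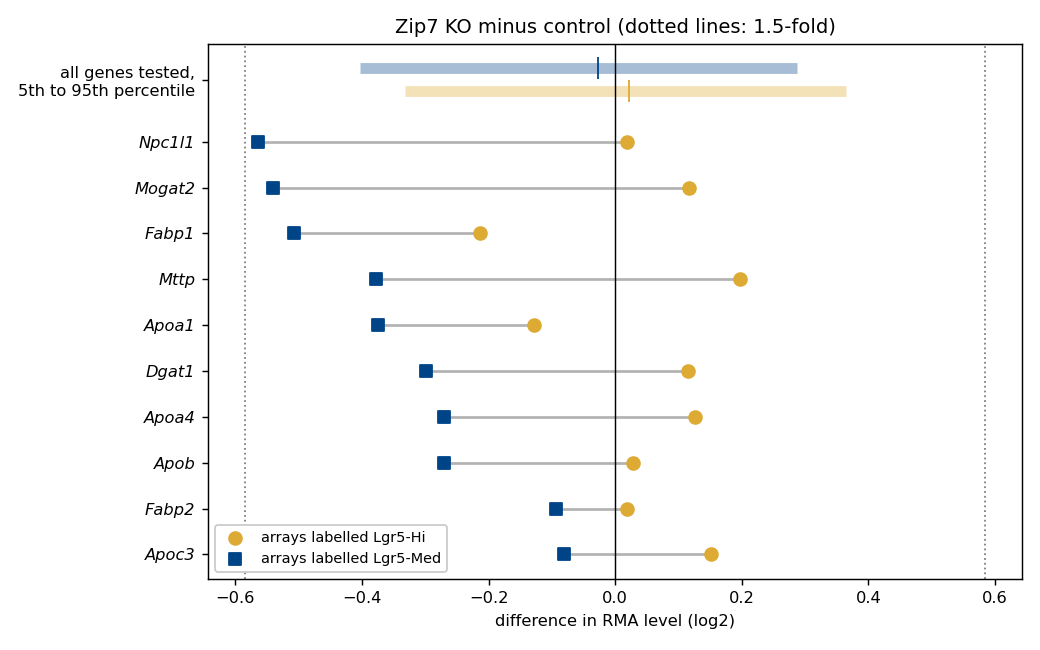
Zip7 KO minus control in RMA level (log2) for each of the 10 genes, with circles for the arrays labelled Lgr5-Hi and squares for those labelled Lgr5-Med; the bars at the top span percentiles 5 to 95 of all genes tested, with the median marked, and dotted lines stand at 1.5-fold. All squares lie below 0, from -0.56 to -0.08, and each lies left of its circle, the circles running from -0.21 to 0.20.

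For all 10 genes the arrays labelled Lgr5-Hi gave a higher genotype difference than those labelled Lgr5-Med, where 60.5 percent of 11827 genes had this sign and 39.5 percent the other (60.4 percent the other with centred arrays). The gap had a median of 0.35 beside 0.06 for all genes, and ran from 0.11 for Fabp2 to 0.66 for Mogat2, which alone passed 1.5-fold, as did 2.34 percent of all genes in that direction and 0.431 percent in the other. Npc1l1 at 0.58 and Mttp at 0.58 followed, and these 3 lay above percentile 95 of all genes, 0.46. With each array centred on its median, the median over all genes moved from 0.06 to -0.05 and that of the 10 genes from 0.35 to 0.24, so that the distance between them was 0.29 either way; Mogat2 then stood at 0.55, short of 1.5-fold, and Fabp2 at 0.00069. The 8 enterocyte markers had a median gap of 0.56, above 0 in 8 of 8. No test of this difference is possible with 1 array a group.

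Between the fractions of control mice the 10 genes divided evenly in direction, with small differences. The value labelled Lgr5-Hi minus that labelled Lgr5-Med was 0.29 for Mogat2, 0.24 for Dgat1, 0.14 for Mttp, 0.11 for Npc1l1 and 0.04 for Fabp1, so that the enzymes, the transfer protein and the sterol importer were slightly higher under the label Lgr5-Hi. It was -0.06 for Apob, -0.21 for Apoa1, -0.27 for Apoa4, -0.29 for Apoc3 and -0.45 for Fabp2, so that every apolipoprotein of the 10 was lower, Apob turning to 0.02 with centred arrays. The split was seen in the values and was not chosen before them. Of the 10, 5 were lower, beside 56.7 percent of 12248 genes lower and 43.3 percent higher (41.6 percent lower with centred arrays), and the medians were -0.01 and -0.04. None was 1.5-fold apart, which 3.14 percent of all genes were downward and 2.3 percent upward, and all 10 lay between percentiles 5 and 95, at -0.50 and 0.40. The 8 enterocyte markers had a median of 0.05, with 5 of 8 higher under the label Lgr5-Hi, while the enteroendocrine markers Chga, Chgb, Neurod1, Gcg and Cck were all higher there, by 2.06 to 2.98 log2 units. The Paneth, goblet and tuft cell markers were higher there too, 4 of 4 in each list, with medians of 1.18, 1.06 and 0.98, and the part of these cell types was not tested.

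In Zip7 KO mice the same comparison was shifted upward for each of the 10 genes. By arithmetic this shift is the gap between genotype differences given before, and not a second result. Of 11827 genes 60.5 percent shifted upward, while with centred arrays 60.4 percent shifted downward. Mogat2 was higher under the label Lgr5-Hi by 0.95, or 1.93-fold, Mttp by 0.72 (1.65-fold), Npc1l1 by 0.70 (1.62-fold) and Dgat1 by 0.65 (1.57-fold). These 4 were the only ones of the 10 past 1.5-fold, as were 5.9 percent of all genes upward and 3.56 percent downward, and they lay above percentile 95 of all genes, 0.64. None was past 2-fold, as 1.87 percent of all genes were upward and 0.751 percent downward. Fabp1 at 0.34, Apob at 0.23, Apoa4 at 0.13 and Apoa1 at 0.04 were higher as well. Apoc3 at -0.05 and Fabp2 at -0.33 were lower. In all, 8 of 10 were higher, beside 49.3 percent of 12114 genes higher and 50.7 percent lower, with medians of 0.29 and -0.0045. The enterocyte markers were higher in 8 of 8, with a median of 0.50, and so were the enteroendocrine markers, 5 of 5 at a median of 2.58, the goblet markers, 4 of 4 at 1.84, the Paneth markers, 4 of 4 at 1.62, and the tuft markers, 4 of 4 at 0.50. The part of these cell types was not tested. This comparison and the preceding genotype comparisons share arrays, so that a value on the Zip7 KO array labelled Lgr5-Med enters both.

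**Figure D3:**
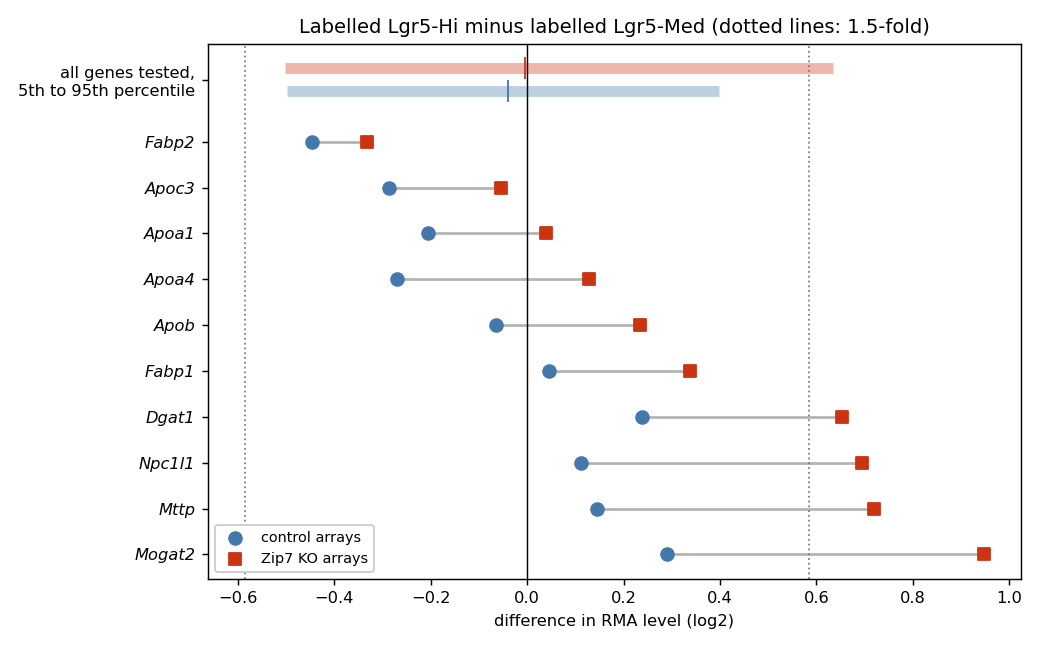
Value labelled Lgr5-Hi minus value labelled Lgr5-Med in RMA level (log2) for each of the 10 genes, with circles for control and squares for Zip7 KO arrays; the bars at the top span percentiles 5 to 95 of all genes tested and dotted lines stand at 1.5-fold. Mogat2, Mttp, Npc1l1 and Dgat1 pass 1.5-fold in Zip7 KO, at 0.65 to 0.95, and none does in control, where values run from -0.45 to 0.29.

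The promoters of Fabp1 and Fabp2 are shown because these related genes differed in which label or genotype parted their arrays, and those of Npc1l1 and Mttp because both were over 1.5-fold apart between Zip7 KO fractions. The sequences are the 250 bases before the gene start in RefSeq's GRCm38.p6, on the strand of the gene: Fabp1 at chr6:71199629-71199878 (plus), Fabp2 at chr3:122894822-122895071 (plus), Npc1l1 at chr11:6230246-6230495 (minus) and Mttp at chr3:138143419-138143668 (minus). Capitals mark matches, on either strand, to the motifs listed after them.
Fabp1: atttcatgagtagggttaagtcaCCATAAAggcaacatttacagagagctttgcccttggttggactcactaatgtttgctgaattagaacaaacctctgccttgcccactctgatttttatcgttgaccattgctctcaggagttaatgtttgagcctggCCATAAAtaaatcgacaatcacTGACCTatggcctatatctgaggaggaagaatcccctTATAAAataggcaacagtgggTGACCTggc
Fabp2: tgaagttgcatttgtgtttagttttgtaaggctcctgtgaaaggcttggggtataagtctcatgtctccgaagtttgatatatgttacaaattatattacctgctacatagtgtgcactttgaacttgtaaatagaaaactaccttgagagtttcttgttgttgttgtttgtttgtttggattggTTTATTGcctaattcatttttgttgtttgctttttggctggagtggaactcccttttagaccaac
Npc1l1: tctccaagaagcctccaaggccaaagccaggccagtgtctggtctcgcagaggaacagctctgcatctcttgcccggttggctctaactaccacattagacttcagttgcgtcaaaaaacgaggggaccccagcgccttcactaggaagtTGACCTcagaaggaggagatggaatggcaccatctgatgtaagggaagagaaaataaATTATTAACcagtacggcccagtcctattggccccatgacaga
Mttp: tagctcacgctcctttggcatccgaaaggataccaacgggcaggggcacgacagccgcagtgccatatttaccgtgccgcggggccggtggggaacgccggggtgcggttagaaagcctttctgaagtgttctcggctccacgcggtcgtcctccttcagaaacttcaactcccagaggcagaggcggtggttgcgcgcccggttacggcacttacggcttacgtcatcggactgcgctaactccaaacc

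Of the 10 genes 7 had a promoter in this table, which holds 32851 windows of 250 bases before and 50 after a start, and Apoc3, Mogat2 and Dgat1 were not looked up elsewhere. The motifs were AGGTCA (a nuclear receptor binding unit), for the intestinal factor CDX2 either TTTATGG or the word TTTATTG, GTTAATNAT (HNF1), CAAAGTCCA (HNF4), AGATAA for factors of the GATA family, TCACNCCAC (a sterol element) and TATAAA, the core of the TATA box. Fabp1 held 2 CDX2 words, starting 227 and 89 bases before the start, 2 receptor units at 67 and 9, and a TATA box at 30. Fabp2 held 1 CDX2 word at 65. Npc1l1 held an HNF1 word at 43 and a receptor unit at 100, and Mttp none of these. Apob held a TATA box at 60, and Apoa1 and Apoa4 had no match. Of all windows 7.20 percent held a CDX2 word, 16.3 percent a receptor unit, 13.6 percent a TATA box, 0.801 percent the HNF1 word, 11.2 percent the GATA word, 1.24 percent the sterol element and 0.475 percent the HNF4 word, and the last 3 were in none of the 7. The CDX2 and TATA words of Fabp1 do not overlap. A match is a word in the sequence and no evidence of binding.

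Transcription factors known for such promoters were measured as well. Hnf4a, which drives many enterocyte lipid genes, was at 11.96 and 11.89 in control and Zip7 KO cells labelled Lgr5-Hi and at 12.06 and 11.93 in those labelled Lgr5-Med. Cdx2 was lower in Zip7 KO cells under either label, by -0.33 and -0.20. Of 22 such factors above the floor 7 were lower among the arrays labelled Lgr5-Hi and 19 among those labelled Lgr5-Med, with medians of 0.09 and -0.12, beside 45 and 55.8 percent of all genes lower. After quantile normalisation or removal of the loess trend 11 were lower and 11 higher among the arrays labelled Lgr5-Hi. With arrays centred on their medians 14 were lower among those labelled Lgr5-Med, with a median of -0.05, beside 39.5 percent of all genes. None of the 22 was 1.5-fold apart between genotypes, as few of all genes were. Under Lgr5-Hi 1.08 percent of all genes were that far upward and 0.926 percent downward, and under Lgr5-Med 0.425 and 2.1 percent. Between fractions Nr1h4, the bile acid receptor FXR, was higher under the label Lgr5-Hi in both genotypes, by 0.63 in control and 1.25 in Zip7 KO cells. Ppara, the fatty acid receptor, was higher there by 0.56 and 0.87.

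A wider list of 116 fat absorption genes gave the context. Of these 102 were measured and 94 were above the floor; 39 of the 94 were lower in Zip7 KO cells labelled Lgr5-Hi and 77 in those labelled Lgr5-Med, with medians of 0.03 (-0.02 with the loess trend removed) and -0.20, beside 45 and 55.8 percent of all genes lower. With arrays centred on their medians 66 were lower under the label Lgr5-Med, with a median of -0.12, beside 39.5 percent of all genes. Past 1.5-fold under that label were 10 of the 94 lower and 0 higher, as were 2.1 and 0.425 percent of all genes. No p-value was computed for any list.

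Uptake and resynthesis genes outside the 10 had larger differences than the 10 in places. Scarb1, a receptor for lipoproteins and lipids, was at 8.19 in control and 7.29 in Zip7 KO cells labelled Lgr5-Med, a difference of -0.90, and Slc27a4, a fatty acid transport protein, differed by -0.69. Dgat2, an enzyme unrelated in sequence to Dgat1 that makes the same product, was at 10.24 and 9.78 under the label Lgr5-Hi and at 10.28 and 9.31 under Lgr5-Med. Its differences of -0.46 and -0.97 had the same sign under both labels, which those of Dgat1 did not. Slc27a2 parted the fractions and not the genotypes, being lower under the label Lgr5-Hi by -0.97 in control and -0.79 in Zip7 KO cells. Agpat2 and Lpin1, earlier steps of triglyceride synthesis, were higher under the label Lgr5-Hi by 0.98 and 0.88 in Zip7 KO cells, and by 0.44 and 0.32 in control cells. Cd36, the fatty acid translocase, was below the floor on all 4 arrays.

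Most genes of the chylomicron assembly and lipid droplet group were higher in Zip7 KO cells under one label and lower under the other, a difference that was not tested. The share of all genes with such opposite signs was not counted, so whether this is unusual is not known. Under Lgr5-Hi, where 55 percent of all genes were higher in Zip7 KO cells, 16 of 17 genes of this group were higher. Their median was 0.19 (0.11 to 0.19 over the scalings, and 14 of 17 at the least). Apobec1, the enzyme that edits apolipoprotein B mRNA, was at 7.86 in control and 8.52 in Zip7 KO cells, a difference of 0.66. It was the only one of the 17 past 1.5-fold, as were 1.08 percent of all genes upward and 0.926 percent downward. Tm6sf2, needed to lipidate lipoproteins, differed by 0.54. Sar1b, the GTPase of vesicles that export chylomicrons, and P4hb, the partner of MTTP, differed by 0.24 and 0.18. P4hb, Surf4, Mia3 and Sec24c serve ER folding and export in general. Under Lgr5-Med, where 55.8 percent of all genes were lower, 13 of 17 were lower. Their median was -0.16, from -0.53 for Pla2g12b to 0.10 for Tm6sf2. With arrays centred on their medians 11 of 17 were lower there, with a median of -0.08, beside 39.5 percent of all genes lower. Between fractions of Zip7 KO mice Apobec1 was higher under the label Lgr5-Hi by 1.05 and Tm6sf2 by 0.88, where the control values were 0.21 and 0.45.

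Of 9 cholesterol transport genes 5 were lower in Zip7 KO cells labelled Lgr5-Hi and 8 in those labelled Lgr5-Med. Their medians were -0.10 and -0.17, beside 45 and 55.8 percent of all genes lower. Of 11 other apolipoprotein and lipase genes measured only Apoa2, Apoa5, Apoe, Angptl4 and Clps were above the floor. Under each label 4 of these 5 were lower in Zip7 KO cells, with medians of -0.09 and -0.08. Clps, the colipase, which also appears in Paneth cells of the mouse, stood at 12.63 and 12.04 under the label Lgr5-Hi and at 11.56 and 10.01 under Lgr5-Med in control and Zip7 KO cells. It was thus higher under the label Lgr5-Hi in both genotypes, by 1.07 and 2.03. The sterol exporters Abcg5 and Abcg8, which oppose NPC1L1, differed by 0.46 and 0.47 in cells labelled Lgr5-Hi and by -0.40 and -0.30 under Lgr5-Med. For Npc1l1 the values were 0.02, which turned negative under the 3 other scalings, and -0.56. Between fractions of Zip7 KO mice Abcg5 differed by 0.82, the endocytic receptor Lrp1 by 0.78 and the cholesteryl ester hydrolase Nceh1 by -0.63; in control mice the values were -0.03, 0.43 and -0.29.

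Of 12 fatty acid oxidation and peroxisome proliferator targets, 11 were lower in Zip7 KO cells labelled Lgr5-Med, with a median of -0.29. So were 5 of 6 bile acid and vitamin genes, with a median of -0.61, beside 55.8 percent of all genes lower. Under the label Lgr5-Hi 7 of the 12 and 5 of the 6 were lower. Their medians there were -0.04 and -0.17, beside 45 percent of all genes lower. Fabp6, the bile acid binding relative of Fabp1 and Fabp2 in the ileum, was at 8.97 and 8.14 under the label Lgr5-Hi and at 8.93 and 7.16 under Lgr5-Med, differences of -0.83 and -1.77. Slc51b, a subunit of the basolateral bile acid exporter, differed by -0.93 under Lgr5-Med. Pdk4, which spares glucose when fat is burnt, differed by -1.15 and Acadl, a fatty acid dehydrogenase, by -0.89 there, and Acadl by -0.65 under Lgr5-Hi. Between fractions Pdk4 was higher under the label Lgr5-Hi by 0.64 in control and 1.37 in Zip7 KO cells, and Creb3l3, a liver and gut factor for lipoprotein genes, by 0.14 and 0.79. Acot1 was lower there, at -0.74 in control and -0.36 in Zip7 KO cells. In Zip7 KO cells Fabp6 and Slc51a were higher under the label Lgr5-Hi by 0.98 and 0.95, where the control values were 0.04 and 0.21.

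**Figure D4:**
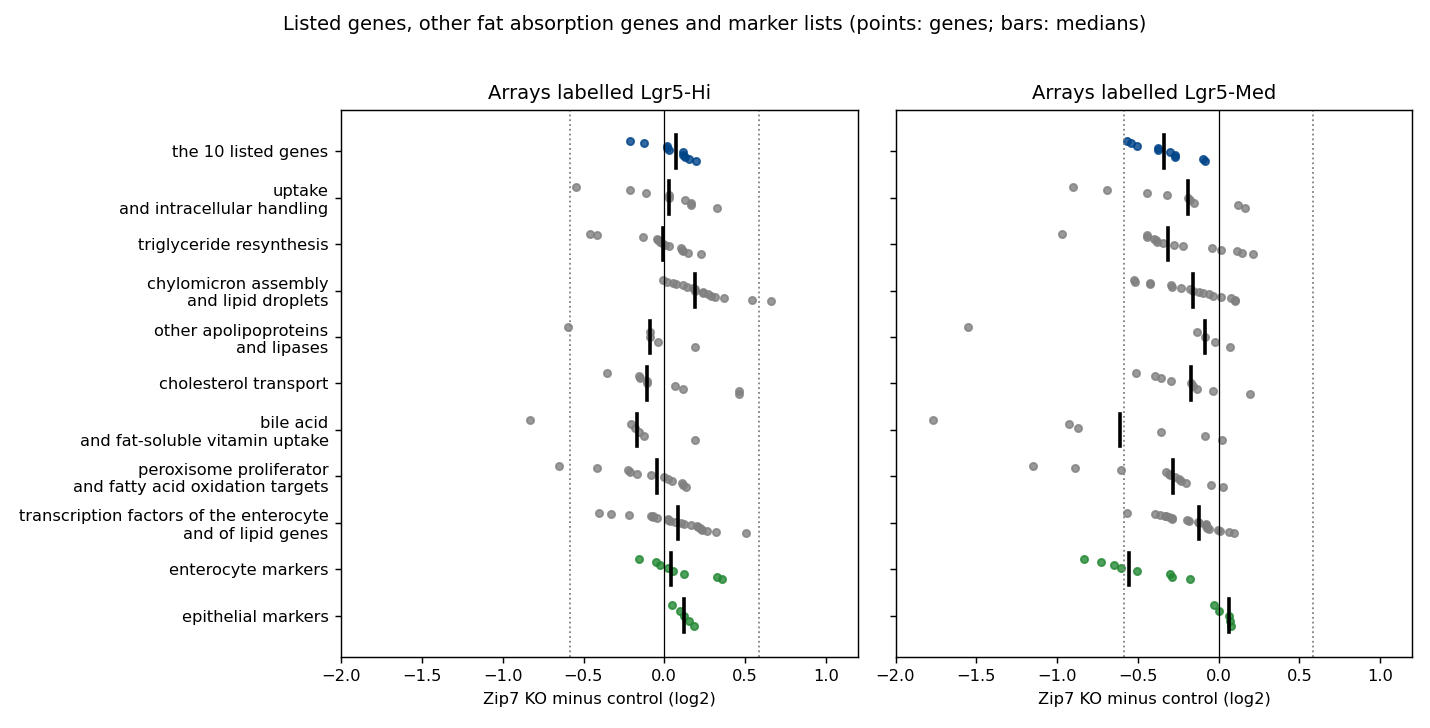
Zip7 KO minus control in RMA level (log2) for the 10 listed genes (blue), the other fat absorption genes by role (grey), and enterocyte and epithelial markers (green), with the arrays labelled Lgr5-Hi on the left and Lgr5-Med on the right; points are genes above the floor, black bars medians and dotted lines 1.5-fold. Under Lgr5-Med the medians of the 10 genes and of the enterocyte markers lie at -0.34 and -0.56 and that of the epithelial markers at 0.07; under Lgr5-Hi they lie at 0.07, 0.04 and 0.12.

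The genes whose pattern over the 4 arrays was most like the median of the 10, by root mean square distance between values centred on each gene's mean, were Mpnd at 0.012, Vps51 at 0.014, Zfp276 at 0.018, Dgkz at 0.019 and Pxdc1 at 0.020, among 11283 genes above the floor on every array. With 4 points a gene, this likeness is a description of these arrays. Of the 10 genes themselves Apob lay nearest to that median profile, at 0.050, and Fabp2 farthest, at 0.281.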

How the data were processed

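Each of the 4 groups had 1 Affymetrix array of biotin-labelled cDNA. The authors deposited RMA levels per probe set, on a log2 scale, per the submitters' processing notes; for the software, its version and the genome build: not given in the sources used here. They were taken as log2 because they ran from 3.08 to 14.6. All 4 value columns were used.

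Of 35557 probe sets, 21789 name 1 gene in the platform annotation, 1621 several and 12147 are not listed; only the first kind was analysed. Where a gene had several probe sets, the one of highest mean was kept. Comparisons used genes whose level on either array exceeded the floor (percentile 95 of the receptor genes). Differences, medians and counts past 0, 1.5-fold and 2-fold were computed in Python 3.11.15 with pandas 2.3.3 and statsmodels 0.14.6. No test was possible with 1 array a group. The scripts were tested on simulated data with known changes.

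The 10 genes and all lists were chosen with earlier results of these data known. Named genes were the 10, in each comparison and role group up to 2 genes at each end past 1.5-fold, and the 5 of most similar pattern; other names illustrate a role and were chosen after their values were seen. Alternatives were centring, quantile normalisation, a loess trend (span 0.3), probe set means, no floor or percentile 99, values raised to the floor, and 2-fold.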

Additional observations from a re-analysis of the deposited data

Results flagged for a closer look

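In 8 of the 10 genes the genotype difference (Zip7 KO minus control, log2) had opposite signs under the fraction labels. Of all genes tested 55 percent were higher under the label Lgr5-Hi and 55.8 percent lower under Lgr5-Med. The share of all genes with opposite signs was not counted, so whether 8 of 10 is unusual is not known. With 1 array a group this difference between labels was not tested, and a difference near 0 can take either sign.

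Mogat2 differed by 0.12 under the label Lgr5-Hi and by -0.54 under Lgr5-Med. Mttp differed by 0.20 and -0.38, Dgat1 by 0.11 and -0.30, and Apoa4 by 0.13 and -0.27. Apoc3 differed by 0.15 and -0.082. The values of Npc1l1 were 0.018 and -0.56, those of Apob 0.029 and -0.27, and those of Fabp2 0.019 and -0.094. For these last 3 the value under the label Lgr5-Hi became negative under each of the 3 other scalings, so that their signs were then the same under both labels.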

How the results depend on the processing

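No paired analysis was possible because each group has 1 array and the labels carry no replicate numbers; for the same reason no array could be left out. Averaging probe sets, dropping or tightening the floor and raising values to the floor changed none of the medians, counts or single-gene values of the 10 genes, which each have 1 probe set well above the floor. The scalings did. Under the label Lgr5-Hi the genotype median turned to -0.0090 with the loess trend removed, and the number of genes lower went from 2 to 5 with arrays centred, with quantile normalisation and with the loess trend removed. There Npc1l1 became -0.017, -0.030 and -0.064, Fabp2 -0.016, -0.033 and -0.052, and Apob -0.0063, -0.015 and -0.054, in that order of settings. The median between control fractions turned to 0.076, 0.0042 and 0.011 in the same order, and Apob there to 0.022 with arrays centred. Centring lowered the median gap between genotype differences to 0.24, with each of the 10 genes moved by over 0.1. At 2-fold, 0 of the 10 genes were past the threshold between Zip7 KO fractions, against 4 at 1.5-fold. For these values the cause was not tested, beyond the choice of threshold. The median under the label Lgr5-Med and that between Zip7 KO fractions kept their signs under all 7 other settings. The number of arrays limits the precision, and no signal over background is given for single probes.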
